A study of Mus musculus with 27 samples.

Results

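The 34 genes described here are interferon response genes, transcripts that cells make more of after an interferon has bound its receptor. They were named as a list and matched by symbol to the 54532 gene rows of the count table, where 34 of 34 were found once. The samples were areas of mouse thyroid sections dissected under a laser microscope, whose 3′ transcript ends were counted in 27 libraries, in 3 groups of 9 with 6 females and 3 males each. PL were proliferative lesions of mice exposed to radiation, NT was histologically normal thyroid next to abnormal areas in those same exposed mice, and NCT was normal thyroid of mice that were not exposed. Each PL library shares its mouse, and here its replicate number, with 1 NT library, while NCT came from other animals. The labels give no dose, time after exposure, strain, genotype or age.

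Type I interferons bind a receptor at the cell surface whose kinases activate STAT2, which is found with IRF9 in a complex that enters the nucleus and binds interferon-stimulated response elements near target genes. Type II interferon (interferon gamma) has its own receptor and acts on a different element. The products of the target genes sense foreign or misplaced nucleic acids, block virus replication or tune the response, and many of them, such as Irf7, Stat2 and the RNA sensors, feed back on the pathway.

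The promoters are shown because some of the members hold the letter pattern of this element, which played no part in choosing them. RefSeq promoter windows (GRCm38.p6, 250 bases before to 50 after the start) were found for 26 of the 34 genes, and Ifi27, Mx2, Mx1, Rtp4, Usp18, Parp14, Zbp1 and Dhx58 had no entry. The letters GAAANNGAAA, the core of the interferon-stimulated response element, were searched on both strands, with overlapping matches counted. At least 1 match stood in the windows of 14 of the 26 genes (14 of their 30 promoter entries), against 3.44% of all 32851 promoters. The core of the interferon gamma element, TTCNNNGAA, stood in 9 of 26 (9 of 30 entries), against 8.3% of all promoters. These shares are descriptions of letters in a window, and neither a match nor its absence shows whether a factor binds. Windows of 7 genes that recur in the results are printed 5′ to 3′ on the strand of the gene, with the matched letters in capitals. They lie at chr4:156200861-156200910 for Isg15 (minus strand), chr19:34640774-34640823 for Ifit1 (plus strand), chr19:34583370-34583419 for Ifit3 (plus strand), chr5:120907526-120907562 for Oas1a (minus strand), chr12:26456543-26456592 for Rsad2 (minus strand), chr8:71537570-71537619 for Bst2 (minus strand) and chr10:128270256-128270305 for Stat2 (plus strand).
Isg15: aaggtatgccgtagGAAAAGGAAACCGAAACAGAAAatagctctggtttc
Ifit1: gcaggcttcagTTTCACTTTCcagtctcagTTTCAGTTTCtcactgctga
Ifit3: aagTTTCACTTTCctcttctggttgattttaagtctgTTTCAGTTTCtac
Oas1a: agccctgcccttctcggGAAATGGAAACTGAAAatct
Rsad2: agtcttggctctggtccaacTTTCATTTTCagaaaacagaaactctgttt
Bst2: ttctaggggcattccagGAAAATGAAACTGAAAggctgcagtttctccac
Stat2: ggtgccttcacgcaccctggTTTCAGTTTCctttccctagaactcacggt
Where the capitals begin with T, the pattern lies on the opposite strand. Isg15 held 3 overlapping matches, Oas1a and Bst2 held 2 overlapping ones, and Ifit1 and Ifit3 held 2 separate ones. The plot of match positions shows where they lie in all 14 genes.

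**Figure D1:**
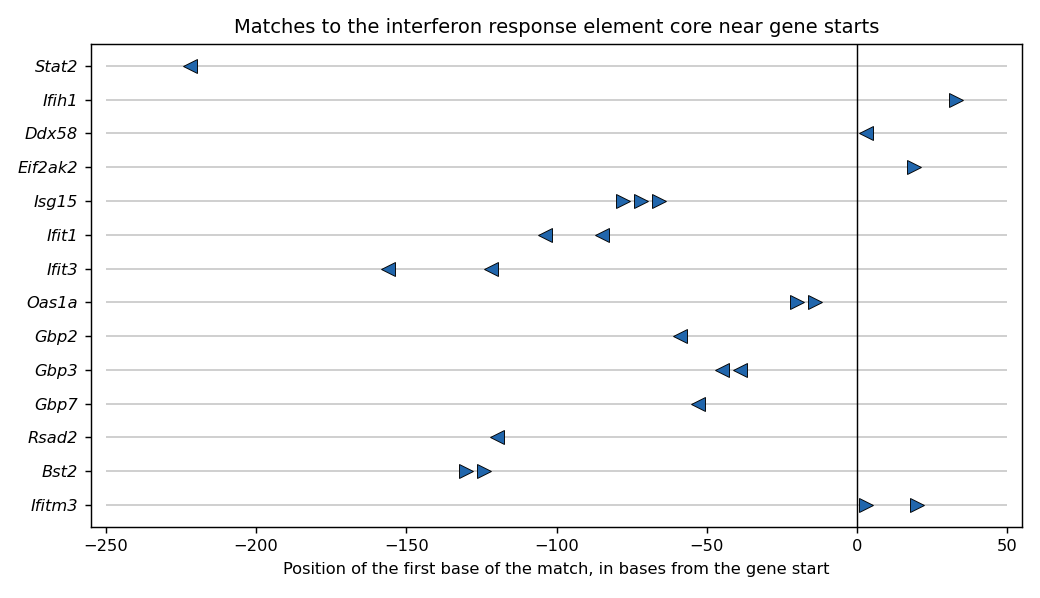
Positions of GAAANNGAAA matches from 250 bases before to 50 after the RefSeq start (vertical line) in the 14 interferon response genes that held one. Each triangle is the first base of a match, pointing right where the letters lie on the strand of the gene and left where they lie on the other strand; Stat2 held the match farthest before the start.

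Libraries held 2923851 to 14148601 counts, with medians of 6479022 in PL, 7220957 in NT and 4622595 in NCT. The summed level of 9 thyrocyte markers ran from 12780 to 36690 CPM (counts scaled to a common library size with TMM factors) in PL, from 13530 to 42890 CPM in NT and from 27940 to 63090 CPM in NCT, and none of the 9 was at 0 in a whole group. Of the 27 libraries, 6 held over 2000 CPM of Pth or Lipf, genes known from the parathyroid gland and from gastric epithelium, namely replicate 2 of PL, replicates 7 and 9 of NT, and replicates 5, 8 and 9 of NCT. Some results are also given without these. Since whole pieces of tissue were captured, fewer cells of a type and less RNA per cell cannot be told apart at any point below.

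Levels of these genes stood apart in 1 mouse. The mouse of replicate 6 held the highest levels, in its lesion and in its normal tissue. Its PL library was the highest of the 9 PL libraries in 28 of 34 members, against 5.54% of all 15233 genes kept. Its NT library was the highest of the 9 NT libraries in 33 of 34, against 15.2% of all genes, the exception being Gbp3, and the highest of all 27 libraries in 27 of 34, against 5.11%. Relative to the median of the other 8 libraries of its group, the PL library was higher by a median factor of 2.13 (1.08 to 4.53) and the NT library by 2.80 (1.26 to 6.97). At least 2-fold higher were 18 members in PL, against 6.3% of all genes, and 25 in NT, against 7.25%.

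The members that stood furthest above the rest in this mouse came from several roles. In the PL library the ratio to the median of the other 8 was 4.53 for Zbp1, 4.23 for Oasl2, 4.22 for Irf7 and 3.99 for Isg15. In the NT library it was 6.97 for Mx2, 6.3 for Zbp1, 5.32 for Oasl2 and 4.9 for Irf7. Trim25, Eif2ak2 and Ifi27 differed little there, with ratios of 1.29, 1.39 and 1.26.

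On the log2(CPM + 1) scale, each member's deviation from its mean over 27 libraries gives a profile per library. The median deviation over members was 0.95 in PL replicate 6 and 1.38 in NT replicate 6, with 34 of 34 members above their means in both. NT replicate 3 followed at 0.62 and NCT replicate 7, a mouse that was not exposed, at 0.47, each with 33 of 34 members above their means. The median deviation of all genes was at most 0.041 in any library. The lowest member medians were those of PL replicate 2 (-0.65), NCT replicate 9 (-0.49), NCT replicate 8 (-0.42) and NT replicate 9 (-0.41). All 4 are among the 6 libraries with over 2000 CPM of Pth or Lipf, while the other 2 of the 6, NT replicate 7 and NCT replicate 5, were at 0.104 and 0.038 with 22 members above their means in each, and the part of that tissue in the low values was not tested.

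**Figure D2:**
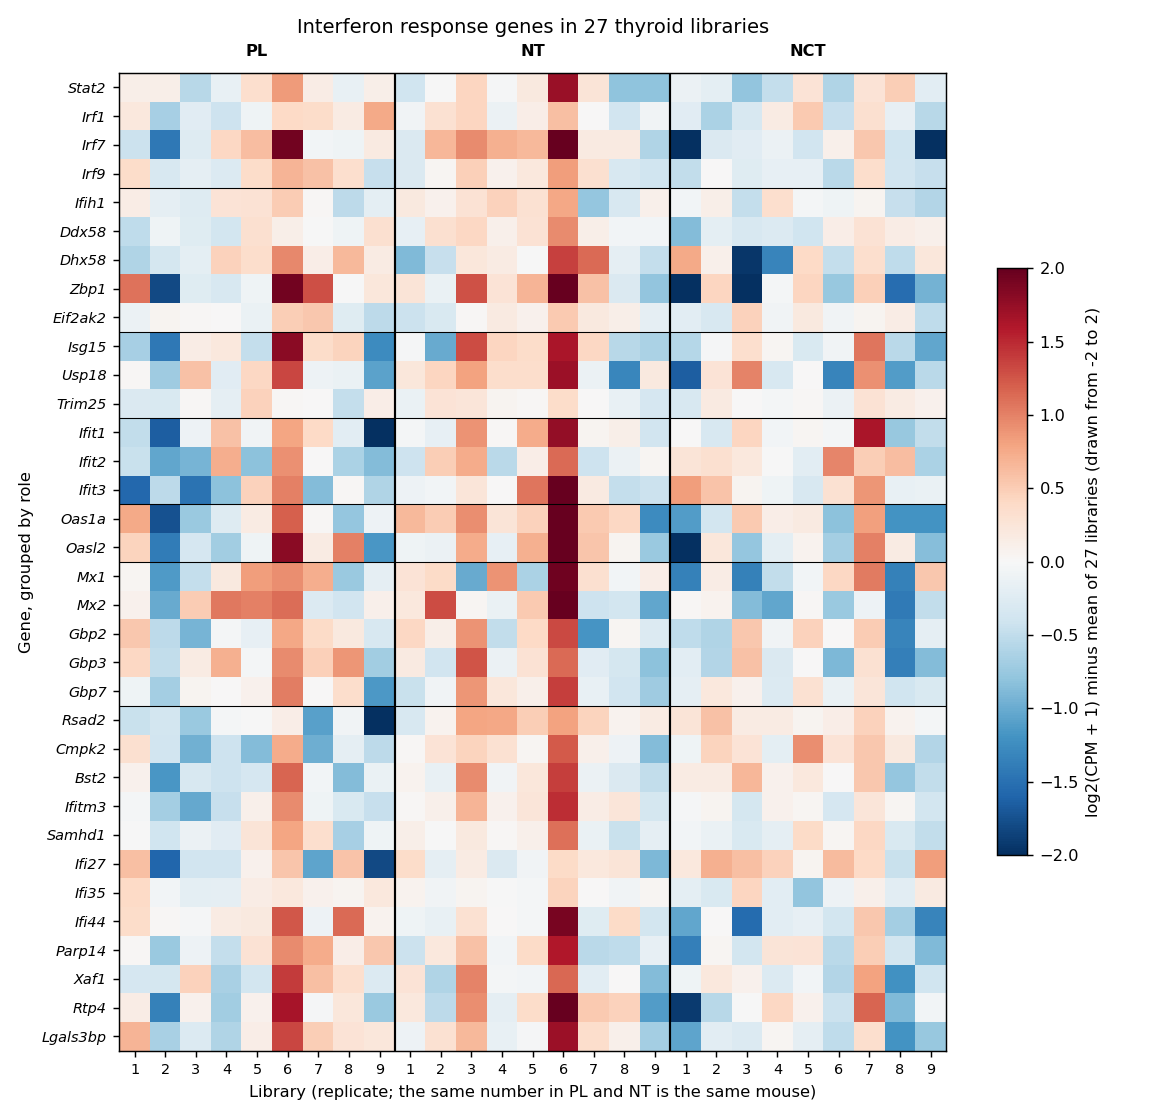
Deviation of log2(CPM + 1) from the mean of 27 libraries for the 34 interferon response genes (rows, grouped by role) in each library (columns, PL, NT and NCT replicates 1 to 9), with red for above and blue for below the mean and colours ending at -2 and 2. Replicate 6 is red from top to bottom in PL and NT, with NT replicate 3 and NCT replicate 7 next.

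The first comparison asks what sets a lesion apart from the tissue around it, within each mouse. Most members were somewhat lower in PL than in NT. The antiviral effectors Ifit3, Rsad2 and Ifitm3 had the smallest p in edgeR's test, but none passed the threshold. With the mouse as a block, edgeR's quasi-likelihood test called 0 of 34 members at a Benjamini-Hochberg adjusted p under 0.05 over all genes, against 3.08% of the 14461 genes tested (1.31% lower). DESeq2 called 4 (Ifit1, Ifit3, Rsad2 and Ifitm3) and limma-voom 3 (Ifit3, Rsad2 and Ifitm3), all lower in PL, against 8.89% of all genes by DESeq2 (4.78% lower) and 3.67% by limma-voom (1.45% lower). At an unadjusted p under 0.05, 9 members were lower and 0 higher in the edgeR fit, against 17.6% of all genes (8.76% lower and 8.89% higher). Without the mouse as a block, 1 member was lower at that p, against 7.45% of all genes. The 9 lower with the block were Ifit3, Rsad2, Ifitm3, Rtp4, Ifit1, Bst2, Cmpk2, Oas1a and Ddx58. The log2 fold changes (PL over NT) ran from -0.95 to 0.15 with a median of -0.22, and 25 of 34 were below 0. Over all genes the median was 0.003, with 49.8% below 0. In 6 members at least 8 of the 9 mice were lower in PL, which held for 6.57% of all genes. No member separated the groups without overlap, which 0.118% of all genes did.

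Over the members together, mice differed in direction, although Rsad2 and Ifitm3 were lower in PL in 9 of 9. In replicates 2, 3, 4 and 6, 27 to 31 of the 34 members were lower in the lesion than in the normal tissue, with median differences (PL minus NT, log2(CPM + 1)) of -0.65, -0.83, -0.30 and -0.44. In replicate 5, 21 were lower, with a median difference of -0.11. In replicates 1, 7, 8 and 9, 14 to 16 were lower, with median differences of 0.064, 0.11, 0.142 and 0.148. Among all genes, 48.3% to 51% were lower in PL in any mouse. Without replicate 2 the median log2 fold change of the members was -0.11, without replicate 3 it was -0.12 and without replicate 6 it was -0.16, and 5, 5 and 6 members were then lower at an unadjusted p under 0.05, against 8.19%, 7.06% and 9.08% of all genes in those fits.

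The second comparison sets NT against NCT, thyroid that looked normal in mice with and without exposure. Most members were higher in NT, with Irf7, Mx2 and Zbp1 furthest up, but none passed the threshold, and much of the difference went when NT replicate 6 was left out. EdgeR's quasi-likelihood test called 0 of 34 members, against 0.0277% of all 14447 genes, and DESeq2 and limma-voom also called 0, against 0.928% of all genes by DESeq2 and 0% by limma-voom. At an unadjusted p under 0.05, 9 members were higher in NT, against 5.6% of all genes, and 1 (Ifi27) was lower, against 5.98% (11.6% in either direction). The log2 fold changes (NT over NCT) had a median of 0.38, and 31 of 34 were above 0, against 0.014 and 52.2% over all genes. In 11 members at least 8 of the 9 NT libraries lay above the NCT median, which held for 9.54% of all genes. No member separated the groups without overlap, against 0.0623% of all genes. Without NT replicate 6 the median was 0.16, 26 members were above 0 and 2 were higher at an unadjusted p under 0.05, against 4.4% of all genes in that fit. Exposure, the presence of lesions in the animal and nearness to a lesion cannot be told apart in this comparison.

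The third comparison, PL against NCT, shares its libraries with the first and the second. Ifi44 was higher in PL, Rsad2 and Cmpk2 were lower in the test without passing it, and the remaining members were spread around a small positive median. EdgeR's quasi-likelihood test called 1 of 33 members tested, higher in PL, against 10.1% of all 14234 genes (5.45% higher), and Mx1 did not pass the filter on low counts. DESeq2 called Ifi44 higher and Rsad2 lower, against 13.1% of all genes (6.89% higher and 6.22% lower), and limma-voom called 0, against 10.1%. At an unadjusted p under 0.05, 5 members were higher, against 12.3% of all genes, and 2 were lower, against 11.2% (23.6% in either direction). No member separated the groups without overlap, against 1% of all genes. The median log2 fold change (PL over NCT) was 0.19, with 24 of 33 above 0, against 50.5% of all genes, and without PL replicate 6 it was -0.025 with 16 above 0. In that fit 1 member was higher and 6 were lower at an unadjusted p under 0.05, against 12.1% and 10.8% of all genes.

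**Figure D3:**
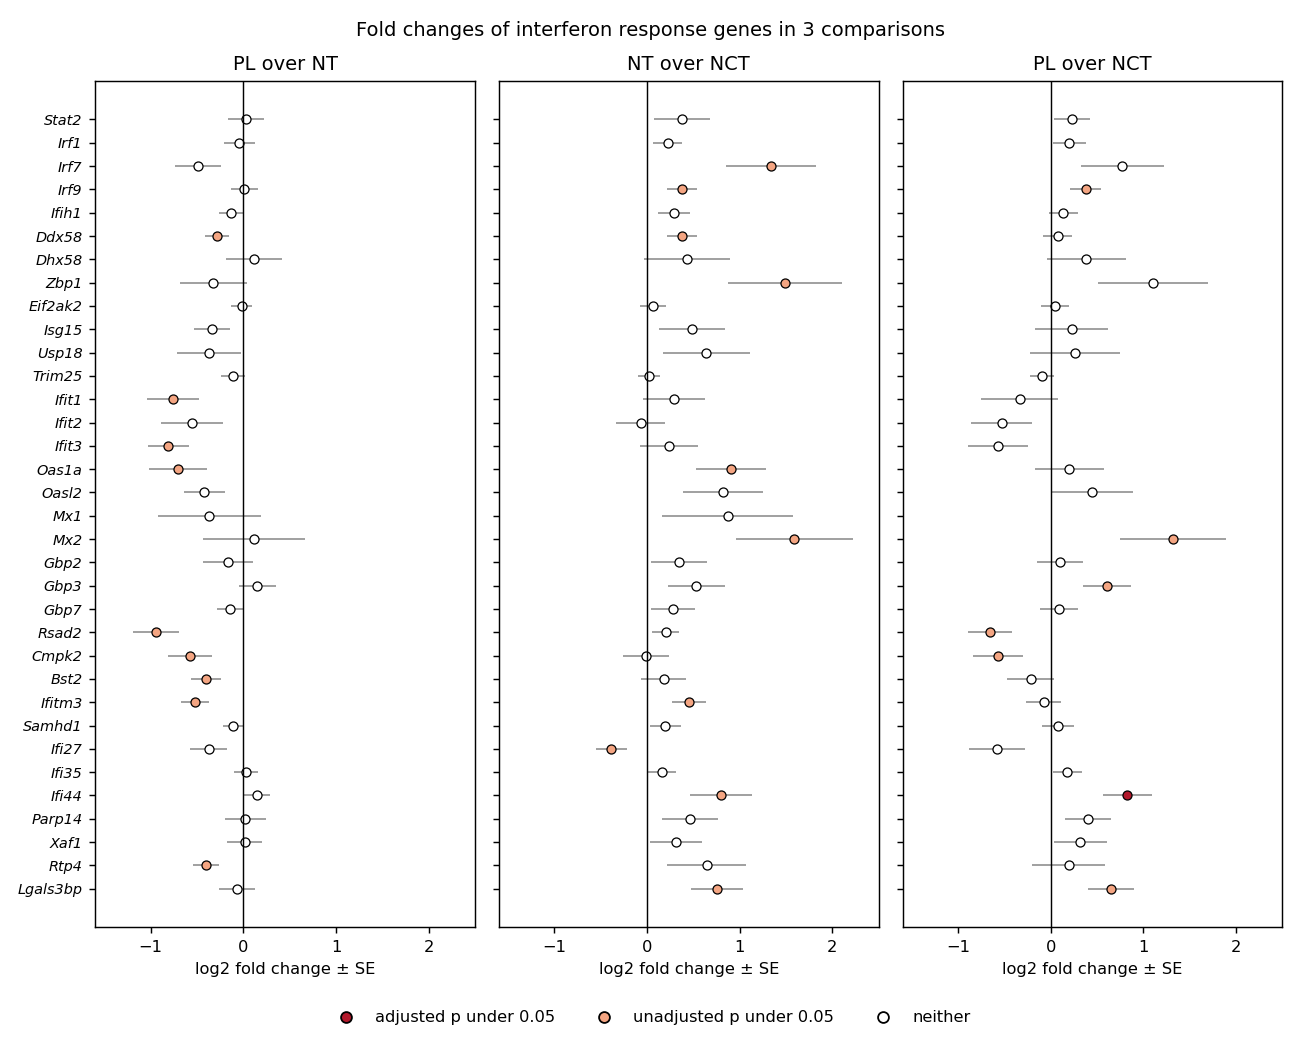
Log2 fold changes with standard errors (bars) of the interferon response genes in PL over NT, NT over NCT and PL over NCT, from edgeR's quasi-likelihood test. Pale red points have an unadjusted p under 0.05, and the 1 dark red point, Ifi44 in PL over NCT, an adjusted p under 0.05; most points lie left of 0 in PL over NT and right of 0 in NT over NCT.

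Of the 4 transcription factors, Irf7 varied most between libraries of a group as a ratio of highest to lowest level. Irf7, which amplifies the production of type I interferon, ran from 4.27 to 52.9 CPM in PL with a median of 12.7, from 8.39 to 88.8 CPM in NT with a median of 21.2, and from 0.9 to 19.6 CPM in NCT with a median of 10.6. Replicate 6 was highest in PL and NT by far, at 52.9 and 88.8 CPM, while the next libraries were at 20.7 and 26.4 CPM, and the remaining libraries of the 3 groups overlapped. The log2 fold change was -0.49 (SE 0.25) in PL over NT, lower in 8 of 9 mice (adjusted p = 0.336), and 1.34 (SE 0.485) in NT over NCT (adjusted p = 0.301, the lowest of the members there). Without NT replicate 6 that fold change was 0.80 (adjusted p = 0.492). In PL over NCT it was 0.77 (SE 0.45, adjusted p = 0.318), and 0.35 without PL replicate 6. Irf7 overlaps Phrf1 on the opposite strand, and since the strand setting of the counting is not given, reads of Phrf1 cannot be told apart.

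Stat2 and Irf9, which belong to the complex that binds the element shown in capitals above, differed little between lesion and normal tissue. Stat2 ran from 17.6 to 48.3 CPM in PL with a median of 28.6, from 14.6 to 89.5 CPM in NT with a median of 26, and from 14.7 to 37.3 CPM in NCT with a median of 22.8. Its log2 fold changes were 0.03 (SE 0.197, adjusted p = 0.958) in PL over NT, 0.38 (SE 0.301, adjusted p = 0.657) in NT over NCT and 0.23 (SE 0.194, adjusted p = 0.531) in PL over NCT. The mouse of replicate 6 was highest in PL and in NT, and the levels of the remaining libraries overlapped. Without NT replicate 6 the NT over NCT value was 0.006.

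Irf9 ran from 33.4 to 75.0 CPM in PL with a median of 59.3, from 35.0 to 84.0 CPM in NT with a median of 49.5, and from 31.9 to 59.8 CPM in NCT with a median of 39.0. The NCT libraries lay in the lower part of the range of the other groups. Irf9 had log2 fold changes of 0.01 (SE 0.144, adjusted p = 0.985) in PL over NT, 0.38 (SE 0.163, adjusted p = 0.374) in NT over NCT and 0.38 (SE 0.168, adjusted p = 0.169) in PL over NCT. Irf9 overlaps Rnf31 on the same strand, so its counts are uncertain. Irf1, a factor induced by interferon gamma, had medians of 109.5 CPM in PL, 98.3 CPM in NT and 82.6 CPM in NCT, with log2 fold changes of -0.04 in PL over NT, 0.22 in NT over NCT and 0.20 in PL over NCT, none called.

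Of the sensors of nucleic acids, Ddx58, Ifih1, Zbp1 and Eif2ak2 had log2 fold changes below 0 in PL over NT, none called. Ddx58 encodes RIG-I and Ifih1 encodes MDA5, helicases that detect viral RNA in the cytoplasm. Ddx58 ran from 30.7 to 55.8 CPM in PL with a median of 41.8, from 39.5 to 86.0 CPM in NT with a median of 47.9, and from 23.8 to 54.6 CPM in NCT with a median of 38.5. All 9 NT libraries lay above the NCT median, although the groups overlapped. Its log2 fold change was -0.28 (SE 0.13, adjusted p = 0.272) in PL over NT, lower in 7 of 9 mice, and 0.38 (SE 0.161, adjusted p = 0.363) in NT over NCT. Ifih1 ran from 26.2 to 54.8 CPM in PL with a median of 38.8, from 22 to 66.2 CPM in NT with a median of 43.9, and from 25.2 to 48.7 CPM in NCT with a median of 36.8. It was lower in PL in 8 of 9 mice, at a log2 fold change of -0.13 (SE 0.13, adjusted p = 0.66), and its log2 fold change was 0.29 (SE 0.169, adjusted p = 0.519) in NT over NCT and 0.13 (SE 0.155, adjusted p = 0.664) in PL over NCT.

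Zbp1, a sensor of left-handed nucleic acids that can trigger cell death, spread from 0.79 to 22.9 CPM in PL, from 2.60 to 41.0 CPM in NT and from 0.17 to 7.69 CPM in NCT. Its log2 fold change was -0.32 (SE 0.363, adjusted p = 0.703) in PL over NT and 1.49 (SE 0.617, adjusted p = 0.363) in NT over NCT. The second of these was 0.86 without NT replicate 6. Eif2ak2, which encodes the RNA-activated kinase PKR, was nearly flat, with log2 fold changes of -0.02 in PL over NT, 0.06 in NT over NCT and 0.04 in PL over NCT. Dhx58, a helicase that modulates RIG-I and MDA5, was a low transcript with medians of 4.27 CPM in PL, 3.72 CPM in NT and 4.06 CPM in NCT.

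Isg15 encodes a ubiquitin-like protein that is attached to other proteins after interferon, and Usp18 removes it and also blocks the interferon receptor. Isg15 ran from 7.27 to 77.3 CPM in PL with a median of 23.7, from 10.1 to 68.5 CPM in NT with a median of 27.9, and from 9.90 to 45.9 CPM in NCT with a median of 20.3. Replicate 6 again held the highest value in PL and in NT, NCT replicate 7 the highest in NCT, and the groups overlapped over most of their range. Isg15 had log2 fold changes of -0.34 (SE 0.197, adjusted p = 0.402) in PL over NT, lower in 7 of 9 mice, 0.48 (SE 0.354, adjusted p = 0.629) in NT over NCT, and 0.23 (SE 0.392, adjusted p = 0.79) in PL over NCT. Without PL replicate 6 the last of these was -0.21. Usp18 had medians of 3.38 CPM in PL, 5 CPM in NT and 2.79 CPM in NCT, and Trim25, a ubiquitin ligase that acts on RIG-I, 42.4 CPM in PL, 42.7 CPM in NT and 42.9 CPM in NCT. Trim25 spanned 30 to 58.5 CPM in PL, 33.4 to 55.1 CPM in NT and 33.6 to 51.6 CPM in NCT.

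The IFIT proteins bind foreign RNA and block its translation, and their 3 genes had the lowest group median, a log2 fold change of -0.76 in PL over NT. Ifit3 ran from 4.83 to 34.2 CPM in PL with a median of 10.5, from 11.5 to 68.5 CPM in NT with a median of 16.4, and from 13 to 31.0 CPM in NCT with a median of 17.0. The PL libraries reached below every NT and NCT library, and the highest PL library lay within the NT range. Ifit3 was lower in PL in 8 of 9 mice, with a log2 fold change of -0.81 (SE 0.222) and the smallest adjusted p of the members, 0.0601. In PL over NCT its log2 fold change was -0.57 (SE 0.32, adjusted p = 0.297), and in NT over NCT 0.24 (SE 0.317, adjusted p = 0.817).

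Ifit1 ran from 2.28 to 36.4 CPM in PL with a median of 19.1, from 15.6 to 72.2 CPM in NT with a median of 21.4, and from 11.7 to 65.5 CPM in NCT with a median of 20. The group medians were close. Replicate 9 held the lowest PL library, and without it the log2 fold change in PL over NT was -0.55. The log2 fold changes were -0.76 (SE 0.281, adjusted p = 0.161) in PL over NT, lower in 7 of 9 mice, 0.29 (SE 0.337, adjusted p = 0.781) in NT over NCT and -0.34 (SE 0.416, adjusted p = 0.688) in PL over NCT. Leaving out single libraries moved the last 2 to -0.003 (without NT replicate 6) and 0.015 (without NCT replicate 7). Ifit2 had medians of 4.51 CPM in PL, 7.79 CPM in NT and 9.20 CPM in NCT and a log2 fold change of -0.56 (SE 0.332, adjusted p = 0.415) in PL over NT. Ifit3 has a near-identical copy, Ifit3b, so that its counts are uncertain.

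**Figure D4:**
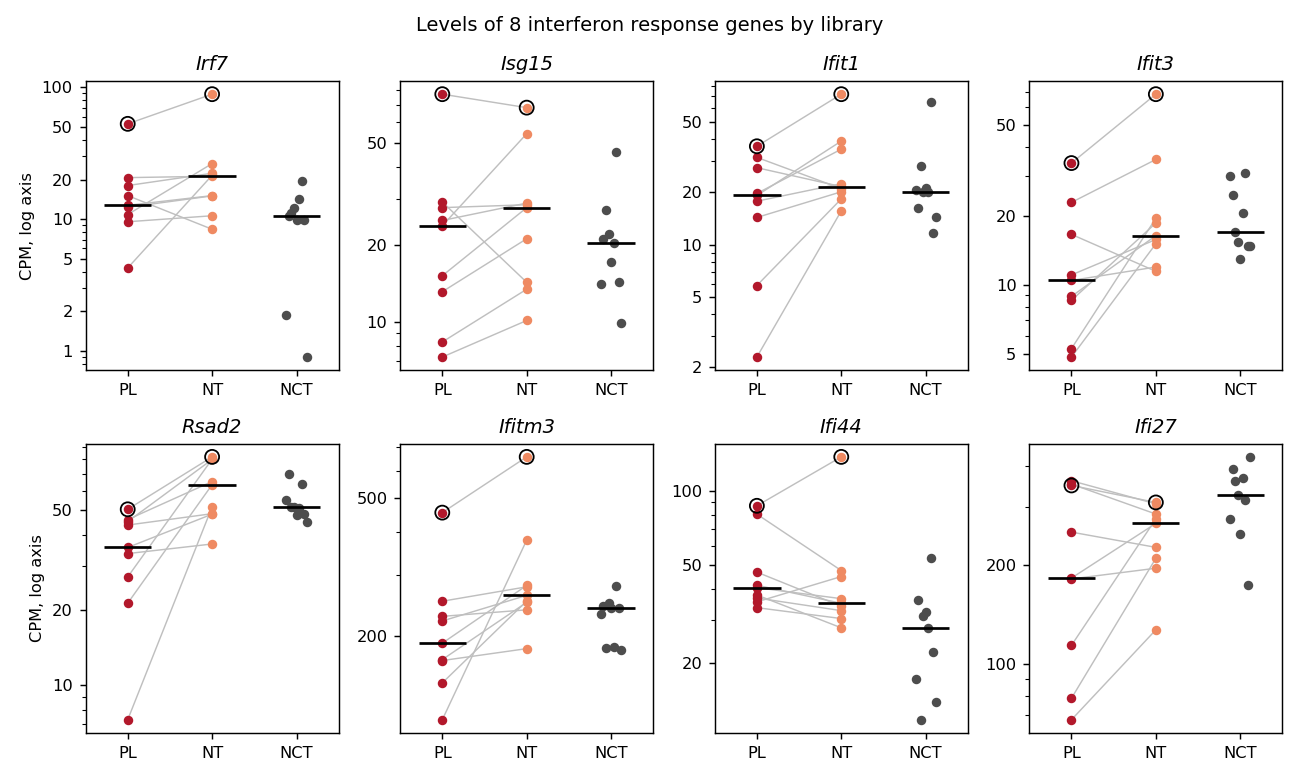
Levels (CPM, log axis) of 8 interferon response genes in each library of PL, NT and NCT, with grey lines joining the PL and NT libraries of a mouse, bars at the medians and rings around replicate 6. The ringed mouse is highest in PL and NT for Irf7, Ifit1, Ifit3 and Ifitm3, and the 9 lines of Rsad2 and of Ifitm3 run upward to NT.

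The oligoadenylate synthetases make a messenger that activates RNase L. Oas1a ran from 4.58 to 41.6 CPM in PL with a median of 16.4, from 6.79 to 77.7 CPM in NT with a median of 25.7, and from 7.16 to 32.0 CPM in NCT with a median of 13.5. Its log2 fold change was -0.71 (SE 0.311, adjusted p = 0.258) in PL over NT and 0.91 (SE 0.38, adjusted p = 0.37) in NT over NCT, and the second of these was 0.58 without NT replicate 6. Oasl2, a relative that also carries ubiquitin-like domains, had medians of 16.7 CPM in PL, 18.5 CPM in NT and 15.4 CPM in NCT. Oas1a has close copies such as Oas1g, and its counts are uncertain.

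Mx2 and Mx1 encode dynamin-like proteins that block virus replication, and the Gbp genes encode guanylate-binding proteins that coat microbes inside cells. Mx2 ran from 0.316 to 4.75 CPM in PL with a median of 1.84, from 0.300 to 11 CPM in NT with a median of 1.73, and from 0 to 1.80 CPM in NCT with a median of 0.9. The annotation marks it as a polymorphic pseudogene, and its low counts leave wide errors. The log2 fold changes were 1.59 (SE 0.627, adjusted p = 0.328) in NT over NCT, 1.32 (SE 0.573, adjusted p = 0.154) in PL over NCT and 0.12 (SE 0.55, adjusted p = 0.943) in PL over NT. Without NT replicate 6 the first of these was 1.01. Mx1 was as low, with medians of 1.61 CPM in PL, 2.09 CPM in NT and 1.46 CPM in NCT.

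Gbp3 was the 1 member whose highest NT library was replicate 3 and not replicate 6. It ran from 22.2 to 71.9 CPM in PL with a median of 49.3, from 20.4 to 89.7 CPM in NT with a median of 33.7, and from 13.7 to 55.6 CPM in NCT with a median of 29.9. Gbp3 had log2 fold changes of 0.15 (SE 0.201, adjusted p = 0.76) in PL over NT, the highest of the members, 0.53 (SE 0.305, adjusted p = 0.518) in NT over NCT and 0.60 (SE 0.26, adjusted p = 0.153) in PL over NCT. Gbp2 and Gbp7 had log2 fold changes of -0.16 and -0.14 in PL over NT and 0.34 and 0.28 in NT over NCT. Reads of the Gbp family can be shared between copies.

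Rsad2 encodes viperin, an enzyme that makes a chain terminator of viral RNA synthesis, and Cmpk2 beside it on chromosome 12 supplies the nucleotide. Rsad2 ran from 7.29 to 50.5 CPM in PL with a median of 35.6, from 36.7 to 81.8 CPM in NT with a median of 63.3, and from 45.0 to 69.8 CPM in NCT with a median of 51.7. It was lower in the lesion in 9 of 9 mice, and all 9 PL libraries lay under the NCT median. The log2 fold change was -0.95 (SE 0.251, adjusted p = 0.062) in PL over NT, the lowest of the members, -0.66 (SE 0.237, adjusted p = 0.0828) in PL over NCT and 0.20 (SE 0.145, adjusted p = 0.622) in NT over NCT. PL replicate 9 was the lowest library. Without it the value was -0.73 in PL over NT (adjusted p = 0.0415) and -0.52 in PL over NCT (adjusted p = 0.0362), smaller folds that passed the threshold. Cmpk2 had medians of 7.20 CPM in PL, 10.7 CPM in NT and 12.2 CPM in NCT, with log2 fold changes of -0.57 (SE 0.238, adjusted p = 0.213) in PL over NT and -0.57 (SE 0.272, adjusted p = 0.205) in PL over NCT.

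Ifitm3 and Bst2 encode membrane proteins that stop viruses from entering or leaving the cell. Ifitm3 ran from 114.9 to 454 CPM in PL with a median of 191.0, from 184 to 658 CPM in NT with a median of 262, and from 182 to 278 CPM in NCT with a median of 241. It was lower in the lesion in 9 of 9 mice, with a log2 fold change of -0.52 (SE 0.148, adjusted p = 0.0694). In NT over NCT the log2 fold change was 0.45 (SE 0.183, adjusted p = 0.348), and 0.23 without NT replicate 6. Bst2 had medians of 49.1 CPM in PL, 58.6 CPM in NT and 69.4 CPM in NCT, with a log2 fold change of -0.40 (SE 0.158, adjusted p = 0.184) in PL over NT. Reads of the Ifitm family can be shared between copies.

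Ifi44, a cytoplasmic antiviral protein of unclear mechanism, was the 1 member called by edgeR. It ran from 33.6 to 87.2 CPM in PL with a median of 40.6, from 27.9 to 138 CPM in NT with a median of 35.0, and from 11.8 to 53.3 CPM in NCT with a median of 27.7. All 9 PL libraries lay above the NCT median, as did all 9 NT libraries, but the groups overlapped, with NCT replicates 2 and 7 above the lowest PL libraries. Ifi44 was higher in PL than in NCT by 0.82 on the log2 scale (SE 0.263, adjusted p = 0.0495), a value at the edge of the threshold. The call was lost in 14 of the 18 fits that left out 1 library, with 0.68 (adjusted p = 0.0968) without PL replicate 6, and without the libraries rich in Pth or Lipf it was 0.77 (adjusted p = 0.157). In NT over NCT the log2 fold change was 0.80 (SE 0.334, adjusted p = 0.371), and in PL over NT 0.15 (SE 0.139, adjusted p = 0.642).

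Lgals3bp, a secreted glycoprotein that binds galectins, ran from 51.7 to 209 CPM in PL with a median of 96.1, from 50.8 to 269 CPM in NT with a median of 87.5, and from 35.2 to 103 CPM in NCT with a median of 67.3. The highest PL and NT libraries, both of replicate 6, stood above the NCT range, and the others mostly overlapped it. Lgals3bp had log2 fold changes of 0.76 (SE 0.281, adjusted p = 0.313) in NT over NCT, 0.65 (SE 0.252, adjusted p = 0.11) in PL over NCT and -0.07 (SE 0.193, adjusted p = 0.902) in PL over NT. Without NT replicate 6 the first was 0.45, and without PL replicate 6 the second was 0.44.

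Rtp4, a chaperone-like transmembrane protein that responds strongly to interferon, ran from 10.8 to 92.7 CPM in PL with a median of 30.7, from 12.8 to 129.6 CPM in NT with a median of 37.6, and from 6.98 to 66.5 CPM in NCT with a median of 27.9. Its ranges overlapped almost fully, and within mice it was lower in PL in 8 of 9, with a log2 fold change of -0.40 (SE 0.14, adjusted p = 0.136). In NT over NCT the log2 fold change was 0.64 (SE 0.427, adjusted p = 0.588), and 0.24 without NT replicate 6. Rtp4 overlaps Masp1 on the opposite strand.

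Ifi27, a small membrane protein of mitochondria and the nuclear envelope, was the 1 member with an unadjusted p under 0.05 and a lower level in NT than in NCT. It ran from 67.5 to 361 CPM in PL with a median of 182, from 126.9 to 310 CPM in NT with a median of 268, and from 174 to 426 CPM in NCT with a median of 327. All 9 NT libraries lay under the NCT median. Its log2 fold change was -0.39 (SE 0.165, adjusted p = 0.368) in NT over NCT, -0.38 (SE 0.196, adjusted p = 0.351) in PL over NT and -0.58 (SE 0.304, adjusted p = 0.26) in PL over NCT. The remaining effectors Samhd1, which depletes nucleotides, Parp14, an ADP-ribosyltransferase, Xaf1, a partner of apoptosis inhibitors, and Ifi35 had log2 fold changes of -0.11, 0.02, 0.01 and 0.03 in PL over NT and 0.20, 0.46, 0.31 and 0.16 in NT over NCT.

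By group medians, the order of the 3 groups was not the same for all members. The highest median was in NT for 17 members, in PL for 11 and in NCT for 6, against 28.3%, 37.5% and 34.2% of all genes. The lowest median was in NCT for 23, in PL for 10 and in NT for 1, against 35.6%, 36.2% and 28.2% of all genes. By edgeR no neighbours in these orders differed past the threshold, since its 1 call, Ifi44 in PL over NCT, had NT between the groups. By DESeq2, Ifit3 differed between PL and NT and Rsad2 between PL and NCT, which are neighbours.

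The ligands of the pathway were at the limit of detection. Of 19 interferon genes in the table, 18, among them Ifnb1 and the Ifna genes, had 0 counts in each group. A count of 0 allows up to 0.046 CPM over the PL libraries, 0.0424 CPM over NT and 0.0594 CPM over NCT, by counting error only. Ifng, the interferon gamma gene, had 1 count in PL, 9 in NT and 17 in NCT in all. Low levels were therefore not detectable at this depth.

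The receptors and their kinases were detected in all 3 groups. Of 9 genes, among them Ifnar1, Ifnar2, Jak1 and Tyk2, 0 were called by edgeR's quasi-likelihood test in each of the 3 comparisons. DESeq2 called 1, Ifngr1, lower in PL than in NT, against 4.78% of all genes lower by DESeq2, and limma-voom called 0. At an unadjusted p under 0.05, 1 was lower in PL than in NT, 1 higher in NT than in NCT and 2 higher in PL than in NCT. The shares of all genes were 8.76%, 5.6% and 12.3%. Ifnar2 ran from 33.2 to 76.9 CPM in PL, from 26.4 to 48.5 CPM in NT and from 16.6 to 50.6 CPM in NCT.

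Among genes that lead to interferon production or restrain the response, edgeR's calls were in PL against NCT. Of 14 tested genes that sense nucleic acids or pass that signal on, 2 were higher in PL than in NCT, against 5.45% of all genes. Myd88, an adaptor of Toll-like receptors, ran from 42.2 to 62.6 CPM in PL with a median of 54.8 and from 31.3 to 45.5 CPM in NCT with a median of 37.2 (log2 fold change 0.46, SE 0.109, adjusted p = 0.00795). Tmem173, which encodes the DNA-signalling adaptor STING, had medians of 24.8 CPM in PL and 12.3 CPM in NCT (log2 fold change 1.04, SE 0.286, adjusted p = 0.0211). Of 8 negative regulators, 2 were higher in PL than in NCT, also against 5.45% of all genes. Both are suppressors of cytokine signalling that inhibit JAK kinases. Socs3 had medians of 19.5 CPM in PL and 7.66 CPM in NCT (log2 fold change 1.51, SE 0.398, adjusted p = 0.0189), and Socs1 medians of 18.2 CPM in PL and 9.90 CPM in NCT (1.19, SE 0.342, adjusted p = 0.0277). Socs1 had a log2 fold change of 1.05 in PL over NT (SE 0.275, adjusted p = 0.0523). The 4 calls were lost in females only and without the libraries rich in Pth or Lipf, and that of Socs1 also in 5 of 18 fits without 1 library (highest adjusted p 0.0559). By limma-voom, Myd88 was the 1 gene of the 4 called. In PL over NT and in NT over NCT edgeR called 0 genes of either list. DESeq2 called Myd88 and Socs1 higher and Traf3 lower in PL than in NT, against 8.89% of all genes in either direction. Limma-voom called Socs1 alone, higher in PL, against 3.67%, and both tools called 0 in NT over NCT. At an unadjusted p under 0.05 in edgeR's test, 1 sensing gene and 2 negative regulators were higher and 2 sensing genes lower in PL than in NT. Of all genes, 8.89% were higher and 8.76% lower there. In NT over NCT, 4 sensing genes and 1 negative regulator were higher at that p, against 5.6% of all genes.

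Other interferon response genes, a list of 58 in the table, had medians close to those of the members. In PL over NT 54 were tested, with a median log2 fold change of -0.26. There 11 were lower and 1 higher at an unadjusted p under 0.05 in edgeR's test, against 8.76% and 8.89% of all genes. Past the adjusted threshold 2 were lower, against 1.31% of all genes lower. Sp100, a nuclear body protein, ran from 10.4 to 37.4 CPM in PL with a median of 19.4 and from 27.1 to 82.1 CPM in NT with a median of 37.0 (log2 fold change -0.87, SE 0.169, adjusted p = 0.0158). Ifi203, of the family of DNA-binding PYHIN proteins, had medians of 45.1 CPM in PL and 78.0 CPM in NT (-0.60, SE 0.13, adjusted p = 0.0263). Both calls were lost in females only and without the mice rich in Pth or Lipf, with Sp100 at an adjusted p of 0.0506 without replicate 8 and Ifi203 lost without any 1 of replicates 2, 3, 8 and 9 (highest 0.076). DESeq2 called 6 lower in PL than in NT, these included, against 4.78% of all genes lower by DESeq2. In NT over NCT 0 of 53 were called by edgeR, DESeq2 or limma-voom, with a median of 0.33. At an unadjusted p under 0.05, 9 were higher, against 5.6% of all genes. In PL over NCT DESeq2 called Ifi205 lower and Shisa5 higher, against 13.1% of all genes in either direction. By edgeR's test, 4 were lower and 2 higher in PL than in NCT at an unadjusted p under 0.05, against 11.2% and 12.3% of all genes. EdgeR and limma-voom called 1 of 52, Shisa5, against 10.1% of all genes by each. Shisa5, an endoplasmic reticulum protein linked to p53 and interferon, was higher in PL by 0.68 on the log2 scale (SE 0.151, adjusted p = 0.00536 by edgeR, and 0.116 in females only). Of the interferon gamma induced GTPases and chemokines, 0 of 20 were called in any comparison by edgeR, DESeq2 or limma-voom. At an unadjusted p under 0.05 in edgeR's test, 4 were lower in PL than in NT, 2 higher in NT than in NCT and 1 lower in PL than in NCT. The shares of all genes were 8.76%, 5.6% and 11.2%.

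Markers of immune cells differed between the same libraries. The summed level of 8 B and plasma cell markers was 1975 CPM in PL replicate 6 and 7015 CPM in NT replicate 6, the highest of all 27 libraries, with PL replicate 1 next at 3297 CPM. The sum of 12 T and NK cell markers was 29.9 CPM in PL replicate 6, which ranked 10th, and 83.3 CPM in NT replicate 6, the highest. The sum of 11 macrophage markers was 1562 CPM in PL replicate 6 and 2664 CPM in NT replicate 6, 2nd after NCT replicate 9 at 17090 CPM. In NCT replicate 9, 1 gene, Lyz2, made up 16760 CPM of that sum. Over the other 10 macrophage markers, a sum chosen after the values were seen, PL replicate 6 ranked 4th of 27 at 875 CPM, NT replicate 6 was the highest at 1572 CPM and NCT replicate 9 ranked 25th at 332.5 CPM. PL replicate 1, 2nd over those 10 markers at 1001 CPM, had a median deviation of interferon response genes of 0.06. The part of these cells in the levels of replicate 6 was not tested.

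By group, the macrophage sum ran from 349 to 2643 CPM in PL with a median of 1166, from 661 to 2664 CPM in NT with a median of 1571, and from 742 to 17090 CPM in NCT with a median of 922. Without Lyz2 it ran from 190.3 to 1001 CPM in PL with a median of 617, from 351 to 1572 CPM in NT with a median of 753, and from 332.5 to 692 CPM in NCT with a median of 481.5. The T and NK cell sum ran from 7.07 to 74.9 CPM in PL, from 13.7 to 83.3 CPM in NT and from 5.40 to 77.3 CPM in NCT, with medians of 23.1 CPM in PL, 33.2 CPM in NT and 23.8 CPM in NCT. The B and plasma cell sum had medians of 212 CPM in PL, 367 CPM in NT and 495 CPM in NCT. No marker of these 3 lists was at 0 in a whole group. Of the 11 macrophage markers 1, Cd163, was lower in PL than in NT (log2 fold change -1.84, adjusted p = 0.0422 by edgeR), against 1.31% of all genes lower. This call was lost in 7 of the 9 fits without 1 mouse (highest adjusted p 0.104, all but those without replicates 5 and 9). It was also lost with no low-count filter, in females only, without the mice rich in Pth or Lipf and without the mouse as a block (highest adjusted p 0.125). In NT over NCT edgeR, DESeq2 and limma-voom called 0, with 5 higher at an unadjusted p under 0.05 in edgeR's test, against 5.6% of all genes. The macrophage sum had its highest group median in NT, as 17 of the 34 interferon response genes did, and its part in the group differences was not tested.

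**Figure D5:**
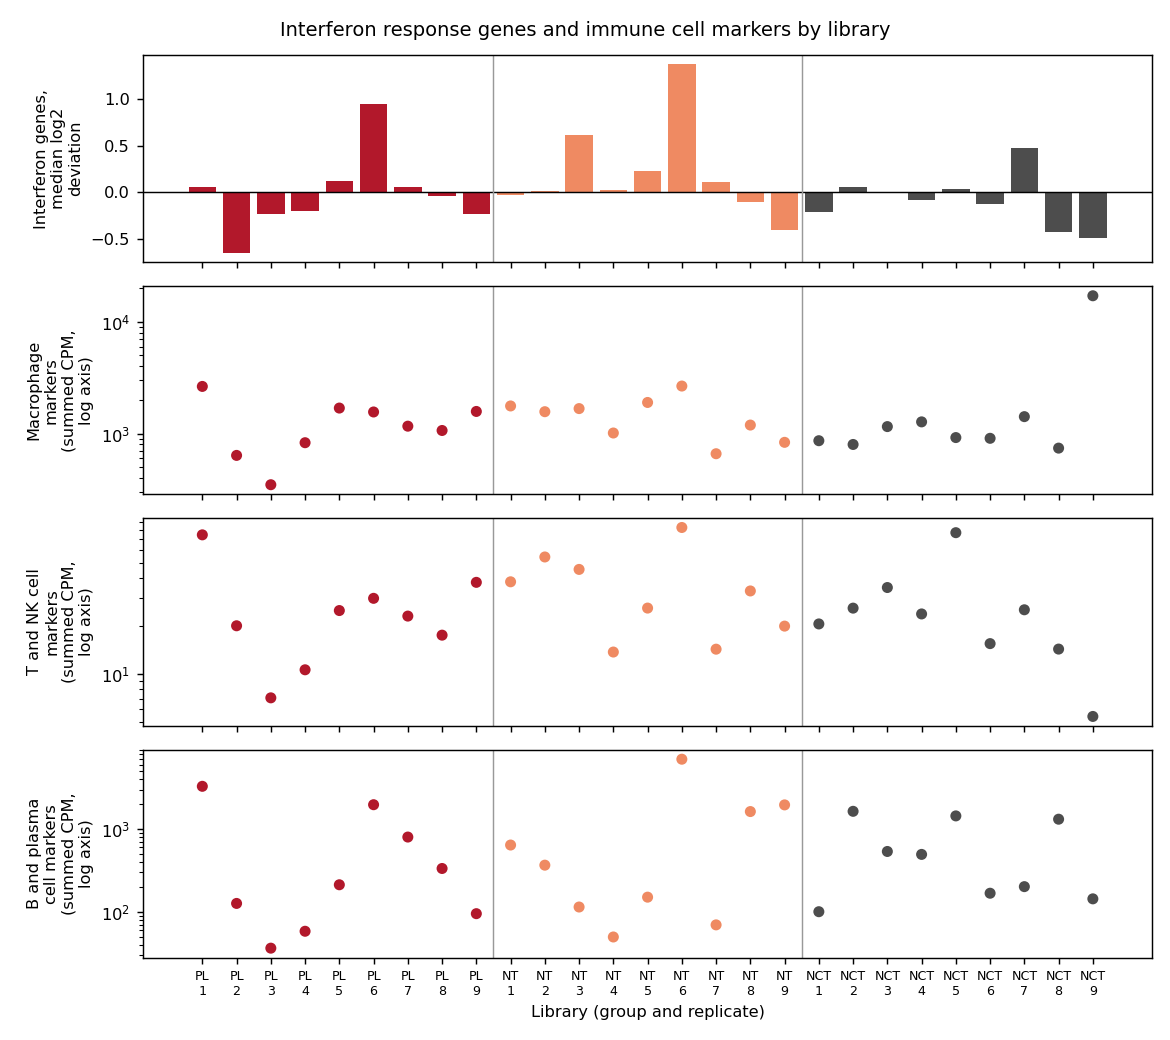
Median log2 deviation of the 34 interferon response genes (top, bars) and summed levels of macrophage, T and NK cell, and B and plasma cell markers (CPM, log axes) in each of the 27 libraries. NT replicate 6 is highest for the interferon genes, the T and NK markers and the B and plasma markers, while the macrophage sum of NCT replicate 9, the highest, is nearly all Lyz2 (16760 of 17090 CPM).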

How the data were processed

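Laser-captured mouse thyroid gave 27 libraries, made with a kit that reads the 3′ ends of transcripts, per the labels' protocols. The authors deposited whole-number read counts per gene with no normalization. STAR, featureCounts, DESeq2 and GRCm38 are named without versions, per the submitters' processing notes; settings, strand and annotation were not stated. Of 54532 gene rows, 54495 were matched by identifier to GENCODE M21 names. Libraries held 2923851 to 14148601 counts, and counting floors cover counting error only.

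Each comparison was fitted with edgeR 4.0.16 (R 4.3.3) by its quasi-likelihood F test, with TMM factors, filterByExpr (minimum count 10), robust dispersion estimates and p-values adjusted by Benjamini-Hochberg over all genes, called at 0.05. PL against NT kept the mouse as a block, since the labels give both libraries of a pair the same mouse number; deviations from group means correlated at -0.00271 to 0.255 within pairs. Standard errors were approximated from the fold change and its F statistic. Levels are CPM with TMM factors over all 27 libraries, and deviations are on log2(CPM + 1). No 2 libraries of a group matched within sampling noise (lowest chi-square per degree of freedom 13.0). The script was tested on simulated data. DESeq2 1.42.0 and limma 3.58.1 were alternatives.

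The members and gene lists were chosen with earlier results of these data known. Full values are given for the 5 members with the smallest p in each comparison, any member called, and Stat2, Irf7, Irf9, Isg15, Ifit1 and Ifih1. Other genes named in the account of mouse 6, and Oas1a, Zbp1, Ifi27, Cmpk2 and Bst2, were picked after their values were seen. The lists of other pathway genes and of cell type markers were applied as counts.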

Additional observations from a re-analysis of the deposited data

Results flagged for a closer look

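In 102 sets of 9 libraries (34 members in 3 groups), Dixon's ratio of the gap beside an extreme library to the whole range, on log2(CPM + 1), was above its 95% critical value in 8. Chance gives about 1 in 20 sets, and the 34 genes are not independent of each other. In 6 of the 8 sets the extreme library was NT replicate 6 at the high end. Its Ifi35 level was 27.9 CPM with the next NT library at 21.2 CPM (ratio 0.724), its Ifi44 level 138 CPM with the next at 47.6 CPM (ratio 0.668) and its Samhd1 level 132 CPM with the next at 70.7 CPM (ratio 0.581). Irf7 stood at 88.8 CPM with the next at 26.4 CPM (ratio 0.526), Oasl2 at 93.5 CPM with the next at 30.3 CPM (ratio 0.518) and Stat2 at 89.5 CPM with the next at 35.6 CPM (ratio 0.515). In NCT, Ifit1 of replicate 7 was at 65.5 CPM with the next at 28.1 CPM (ratio 0.498). At the low end, Rsad2 of PL replicate 9 was at 7.29 CPM with the next PL library at 21.3 CPM (ratio 0.542).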

How the results depend on the processing

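Counts of Mx1, Mx2, Dhx58 and Usp18 were low, and their errors are wide. Members called in PL against NT numbered 0 in the fit reported, 4 by DESeq2, 3 by limma-voom and 2 with no filter on low counts, all lower, and 0 to 1 when 1 mouse was left out (Ifit3 without replicate 8, Rsad2 without replicate 9). Without the mouse as a block the count was 0 and the members' median log2 fold change -0.24, against -0.22 with it, while members lower at an unadjusted p under 0.05 numbered 1 without it (7.45% of all genes) and 9 with it. In PL against NCT the count was 1, and 2 by DESeq2; it was 0 with upper-quartile factors, limma-voom, no filter, females only, all 27 libraries in one fit, and without the libraries over 2000 CPM of Pth or Lipf, and 0 to 2 when 1 library was left out. In NT against NCT it was 0 under every setting run. Without the libraries over 2000 CPM of Pth or Lipf (whole mice in PL against NT), 10 members were lower and 0 higher in PL than in NT at an unadjusted p under 0.05, against 6.36% of all genes each way. The lowest adjusted p there was 0.146 by edgeR. In NT over NCT 6 were higher and 1 lower, against 7.2% each way. In PL over NCT 3 were higher and 1 lower, against 11.3% and 9.43%. The medians were -0.21, 0.42 and 0.14. Median fold changes kept their direction, except PL against NCT without PL replicate 6 (-0.025); over the fits without 1 library they ran from -0.278 to -0.106 in PL against NT, from 0.158 to 0.469 in NT against NCT and from -0.025 to 0.279 in PL against NCT.

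Among named members, values near 0 changed sign. Stat2 in PL over NT was 0.03, but -0.003 with upper-quartile factors, -0.093 by limma-voom, -0.256 in females, -0.135 without the mice rich in Pth or Lipf, -0.137 without the replicate block, and -0.09 to 0.16 with 1 mouse left out. Irf9 was 0.01, but -0.025 with upper-quartile factors, -0.027 in females, and -0.073 to 0.095 with 1 mouse left out. With 1 library left out, Ifit1 ran from -0.003 to 0.625 in NT over NCT and from -0.509 to 0.015 in PL over NCT, and Isg15 from -0.21 to 0.454 in PL over NCT. The cause was not tested.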

Other observations

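Each group held 6 females. In the 6 female pairs, 30 of 34 members had a log2 fold change below 0 in PL over NT and 11 were lower at an unadjusted p under 0.05, against 5.4% of all genes, with a median of -0.21 and 0 called by edgeR (lowest adjusted p 0.0782). In NT over NCT, 33 of 34 were above 0 in females, with a median of 0.45 and 0 called. Whether females and males differ was not tested.

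Among libraries of mice that were not exposed, NCT replicate 7 was the highest of 9 for 18 of the 34 members, against 7.8% of all genes. NCT replicates 8 and 9 were the lowest for 10 and 9, against 12.9% and 13.1% of all genes. NT replicate 9 was the lowest NT library for 19 members, against 14.6% of all genes. PL replicates 2 and 9 were the lowest PL libraries for 13 and 8, against 8.7% and 12% of all genes. The median deviations of the members ran from -0.65 to 0.95 in PL, from -0.41 to 1.38 in NT and from -0.49 to 0.47 in NCT on the log2(CPM + 1) scale. Markers of macrophages, T and NK cells, and B and plasma cells in NCT replicate 7 summed to 1419, 25.3 and 202 CPM. The macrophage sum was the 2nd of the 9 NCT libraries, and without Lyz2 the highest, at 692 CPM, with 5 of the 11 macrophage markers at their highest NCT level in this library. The part of these cells in its levels was not tested.

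Neutrophil markers were low in all groups, at 1.64 to 33.7 CPM in PL, 1.39 to 16.6 CPM in NT and 2.19 to 15.3 CPM in NCT for 6 genes summed. Markers of plasmacytoid dendritic cells, which make much of the type I interferon of the body, summed over 5 genes to medians of 12.5 CPM in PL, 23.6 CPM in NT and 20.7 CPM in NCT. This sum can rest on 1 gene. In NT replicate 4, the highest library, Cox6a2 made up 75.9 of 84.9 CPM, so the sum does not measure the amount of these cells. Of the 5 markers, 3 were tested by edgeR in PL over NCT, and 1 was called, lower. It was Siglech, a surface lectin of these cells, at -1.54 on the log2 scale (SE 0.316) with an adjusted p of 0.00291. Of all 14234 genes tested there, 657 were called lower. By group medians, Cox6a2 and Ly6d were also lower in PL than in NCT (2.818 against 7.749 CPM and 1.735 against 2.046 CPM). Ccr9 and Klk1 went the other way (0.597 against 0.511 CPM and 0.136 against 0 CPM).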
